A study of Mus musculus with 56 samples.

Results

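Cholesterol synthesis, uptake and export were followed in mouse liver through 32 genes, taken by gene symbol from the deposited count table. The list of symbols was drawn up with earlier results of these data known. All 32 were found among its 21935 genes, and all 32 were among the 14105 genes tested (5 or more reads in 3 or more mice). 19 of them code for enzymes of cholesterol synthesis, from the joining of acetyl groups to the last reduction that yields cholesterol. The other 13 sense sterols and control the pathway (Srebf2, Scap, Insig1, Insig2), carry sterols or set receptor turnover (Stard4, Tmem97, Mylip), esterify cholesterol (Soat2), export it (Abcg5, Abcg8, Abca1) or release it from lysosomes (Npc1, Npc2).

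The liver RNA came from 56 male C57BL/6J mice, aged 5 to 6 weeks on arrival, in 7 groups of 8. The chow group was dosed with vehicle. The other 48 mice ate the AMLN diet, which is rich in trans-fat and fructose and holds 2% cholesterol, for 36 weeks before dosing and had steatosis and fibrosis on a liver biopsy (diet-induced obese mice with metabolic dysfunction-associated steatohepatitis, DIO-MASH). They then received daily subcutaneous doses for 8 weeks: vehicle, low-dose zalfermin (0.05 mg/kg), high-dose zalfermin (0.2 mg/kg), low-dose semaglutide (3 µg/kg), high-dose semaglutide (120 µg/kg), or the combination of low-dose zalfermin and low-dose semaglutide. Zalfermin mimics the hormone FGF21 with a prolonged action, and semaglutide activates the GLP-1 receptor. The combination doses are those of the study's methods, whereas the design text of the record names the high doses for it. Chow and AMLN mice differ in cholesterol, fat and sugar at once, so these parts of the diet cannot be told apart.

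Reads on genes ranged from 5228187 to 20885786 per mouse (median 12206788), and values are given as CPM (reads scaled to a common library total by the normalisation). Mice are numbered in the order of the records within their group. Chow mouse 8 and low-dose semaglutide mouse 6 were the least like their own groups, with mean Spearman correlations to the other 7 of 0.947 and 0.967, against a median of 0.983 over the 56 mice. The study left out 1 low-dose semaglutide mouse that the labels do not mark, and all 56 were kept here. Hepatocyte markers (Alb, Apoa2, Ttr, Serpina1a and Tat) summed to 131603 to 215960.0 CPM in chow livers and to 54304 to 76474 CPM in DIO-MASH vehicle livers. Most of each sum was Alb, which averaged 137598 CPM in chow and 53174 CPM in vehicle livers and fell by 1.37 on the log2 scale. The others fell by 0.70 (Apoa2) to 1.47 (Serpina1a), all called by edgeR's test. The 5 stellate cell markers summed to 33.1 to 104 CPM and to 457 to 957 CPM in the same order, and the 5 markers of monocyte-derived macrophages to 48.4 to 83.1 and 312 to 697 CPM. Mean sums in chow and vehicle livers were 75.0 and 394 CPM for cholangiocytes, 205 and 254 for Kupffer cells, 171 and 183 for endothelial cells, 1.98 and 7.23 for T cells and 3.04 and 13.8 for B cells. Spp1, which is in the lists of cholangiocytes and of macrophages, went from 33.02 to 350.2 CPM and makes up nearly all of the cholangiocyte difference. Among the other cholangiocyte markers, Krt7 went from 1.82 to 7.35 CPM and Sox9 from 5.45 to 11.9 CPM, both called higher by edgeR's test. Epcam went from 13.5 to 15.1 CPM and Krt19 from 21.2 to 9.52 CPM, neither called. The cholangiocyte sum ran from 32.1 to 277 CPM among chow livers. The Kupffer markers moved apart under their like sums, with Cd5l higher (1.11 on the log2 scale) and Timd4 (-2.20) and Marco (-5.42) lower in vehicle livers by edgeR's test. In such bulk samples fewer hepatocytes and less RNA per hepatocyte cannot be told apart, and the part of cell composition in the results was not tested.

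Liver cells make cholesterol from acetyl-CoA through the mevalonate pathway, in which short isoprenoid units are joined into squalene, squalene is closed into lanosterol, and lanosterol is trimmed and reduced to cholesterol. The genes of these enzymes share a transcription factor, SREBP-2 (the product of Srebf2). Its escort protein Scap carries it to the Golgi for cleavage when membranes of the endoplasmic reticulum are poor in sterol, and Insig proteins hold the complex back when sterol is plentiful. Liver X receptors, which bind oxysterols, act on genes of export such as Abca1, Abcg5 and Abcg8 and on Mylip, whose product marks lipoprotein receptors for breakdown.

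Sequences before the transcription start are shown for enzymes that fell with the diet (Hmgcs1, Pmvk, Cyp51, Nsdhl, Ebp), for both Insig genes, of which Insig2 rose with the diet, and for the stretch that Abcg5 and Abcg8 share. They come from RefSeq promoter windows (GRCm38.p6, 250 bases before to 50 after the start), which were found for 26 of the 32 genes. Pmvk, Scap and Abcg8 have 2 windows each, and Dhcr7 and Insig2 have 3. A motif was counted for a gene if any of its windows held it. The stretches of Pmvk and Insig2 are from the first window. Each is read 5′ to 3′ on the strand of the gene, and bases in annotated exons were left out. Capitals mark the letters TCACNCCAC or CACNCCAC (forms of the sterol response element, the shorter being part of the longer), CCAAT (bound by NF-Y) and GGGCGG (bound by Sp1) on either strand, so that ATTGG is a reversed CCAAT and CCGCCC a reversed GGGCGG.
Hmgcs1 (chr13:119690171-119690350, plus strand): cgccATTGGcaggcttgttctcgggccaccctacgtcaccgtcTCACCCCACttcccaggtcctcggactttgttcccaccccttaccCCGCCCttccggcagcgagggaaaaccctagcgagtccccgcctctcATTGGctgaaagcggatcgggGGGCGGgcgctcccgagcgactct
Pmvk (chr3:89454361-89454540, plus strand): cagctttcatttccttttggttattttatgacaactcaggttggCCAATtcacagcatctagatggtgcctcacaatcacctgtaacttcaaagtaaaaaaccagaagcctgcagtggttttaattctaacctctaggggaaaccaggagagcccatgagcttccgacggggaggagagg
Cyp51 (chr5:4104747-4104926, minus strand): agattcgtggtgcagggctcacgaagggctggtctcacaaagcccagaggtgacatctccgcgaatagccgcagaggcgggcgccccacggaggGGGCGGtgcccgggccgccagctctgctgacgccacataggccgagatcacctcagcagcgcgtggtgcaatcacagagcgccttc
Nsdhl (chrX:72918412-72918520, plus strand): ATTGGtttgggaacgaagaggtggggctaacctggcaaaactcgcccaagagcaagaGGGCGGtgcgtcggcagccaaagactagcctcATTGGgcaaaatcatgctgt
Ebp (chrX:8193513-8193692, minus strand): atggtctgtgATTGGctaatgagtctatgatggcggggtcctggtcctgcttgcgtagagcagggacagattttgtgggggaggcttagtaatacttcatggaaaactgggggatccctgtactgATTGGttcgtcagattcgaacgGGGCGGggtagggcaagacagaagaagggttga
Insig1 (chr5:28071183-28071362, plus strand): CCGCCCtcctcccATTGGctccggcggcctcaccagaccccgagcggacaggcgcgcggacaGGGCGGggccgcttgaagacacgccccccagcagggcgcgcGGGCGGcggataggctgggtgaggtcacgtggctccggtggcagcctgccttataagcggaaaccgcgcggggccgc
Insig2 (chr1:121332590-121332769, minus strand): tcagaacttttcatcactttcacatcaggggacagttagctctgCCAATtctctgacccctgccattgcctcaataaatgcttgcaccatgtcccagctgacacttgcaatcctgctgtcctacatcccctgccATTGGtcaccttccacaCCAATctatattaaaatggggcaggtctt
Abcg5 and Abcg8 (chr17:84683012-84683120, plus strand): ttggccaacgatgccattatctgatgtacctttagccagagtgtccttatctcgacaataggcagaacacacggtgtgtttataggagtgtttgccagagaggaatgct

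CCAAT stood in the windows of 15 of the 16 synthesis enzymes with a window, against 41.1% of all 27025 gene symbols with one, and GGGCGG in 14 of 16, against 38.2%. Of the other 10 genes with a window, 8 held CCAAT and 8 held GGGCGG. Both stood in the window of Mylip, which rose with the diet. For Insig2, which also rose, CCAAT stood only in the first window and GGGCGG only in the other windows. CCAAT was also found for Ggps1, which did not fall. The window of Mvk held 5 CCAAT matches and those of Hmgcs1 and Nsdhl 4 each. TCACNCCAC was found in Hmgcs1 alone among the 26 genes (1.44% of all symbols), and CACNCCAC also in Acat2 and, outside the printed stretch, in Insig1 (7.12%). The DR4 element of liver X receptors (AGGTCA, any 4 bases, AGGTCA) was in none of the 26 windows and in 0.0148% of all symbols. Abcg5 and Abcg8 are read in opposite directions from starts 109 bases apart, and no searched motif lies between them. A match of letters describes the window and was not tested as a binding site. No window was found for Fdps, Fdft1, Sqle, Stard4, Soat2 or Npc1.

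The first question was how the cholesterol-rich diet and the disease changed these genes. Compared with chow, 24 of the 32 were lower and 3 higher in DIO-MASH vehicle livers, where 26.5% of all genes tested were lower and 28.9% higher. 18 of the 19 synthesis enzymes fell. The median log2 fold change was -1.30 over the enzymes, -1.06 over the 32 genes and 0.01 over all genes. In 15 of the 19 enzymes and in 5 of the other genes every vehicle mouse lay below every chow mouse, which held for 6.48% of all genes. All adjusted p-values here and below come from edgeR's quasi-likelihood test, adjusted by Benjamini and Hochberg's method across the 14105 genes.

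The largest fall was that of Sqle, squalene epoxidase, which inserts the first oxygen on the way to sterols. It ranged from 96.9 to 210.3 CPM (median 121) in chow mice and from 2.54 to 20.9 CPM (median 9.98) in vehicle mice. The highest vehicle mouse was far below the lowest chow mouse, and the difference was 11.7-fold (log2 fold change -3.55 ± 0.45 (SE), adjusted p = 3.44e-09). Idi1, which isomerises the 5-carbon isoprenoid unit, was at 14.7 to 37.8 CPM (median 20.97) in chow and 1.55 to 7.36 CPM (median 3.38) in vehicle mice, a log2 fold change of -2.75 ± 0.26 (SE), adjusted p = 2.44e-12. Fdft1, squalene synthase, which commits isoprenoids to sterols, was 103 to 186 CPM (median 139) in chow and 43.6 to 78.8 CPM (median 55.5) in vehicle mice, 2.49-fold lower (adjusted p = 1.03e-12). Fdps, which makes farnesyl diphosphate, fell by 1.28 on the log2 scale, also without overlap. Ggps1 makes geranylgeranyl diphosphate, which serves protein prenylation and not sterols. It was the only synthesis enzyme not called, at 4.80 to 10.1 CPM (median 6.05) in chow and 5.70 to 8.72 CPM (median 6.92) in vehicle mice (log2 fold change 0.11, 95% interval -0.16 to 0.37).

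Of the early steps, Pmvk, phosphomevalonate kinase, fell most. It was at 61.2 to 137 CPM (median 85.0) in chow and 11.9 to 35.1 CPM (median 29.8) in vehicle mice, a log2 fold change of -1.69 ± 0.23 (SE), adjusted p = 2.26e-08. Vehicle mouse 5 was the lowest of its group, and no vehicle mouse reached the lowest chow mouse. Hmgcs1, HMG-CoA synthase, ranged from 112 to 579 CPM (median 351) in chow and 82.2 to 223 CPM (median 180.2) in vehicle mice. The groups overlapped, with chow mouse 6 the lowest of its group, and Hmgcs1 was 2.17-fold lower (adjusted p = 4.27e-05). Mvk, mevalonate kinase, fell by 1.196, Mvd, which removes a carboxyl group from mevalonate diphosphate, by 1.30, and Acat2, the thiolase of the first step, by 0.69 on the log2 scale, all past the threshold.

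All 9 genes of the sterol steps fell. Msmo1, which takes methyl groups off carbon 4, was at 133 to 398 CPM (median 307) in chow and 33.8 to 80.5 CPM (median 54.2) in vehicle mice (5.49-fold lower, log2 fold change -2.46 ± 0.20 (SE), adjusted p = 2.99e-14). Tm7sf2, a sterol reductase acting after lanosterol, was at 205 to 352 CPM (median 235) and 30.96 to 67.6 CPM (median 51.3), 5.43-fold lower. Cyp51, lanosterol demethylase, was at 225 to 368 CPM (median 285) and 31.4 to 74.0 CPM (median 64.7), 4.96-fold lower, and its promoter stretch above holds 1 GGGCGG. None of these 3 genes overlapped between the groups. Nsdhl, the partner of Msmo1 in the same removal, fell by 2.13, Hsd17b7, a reductase of that removal, by 1.42, Ebp, the sterol isomerase, by 1.24, and Lss, which closes the ring of lanosterol, by 1.23 on the log2 scale. The smallest falls were those of the late enzymes Dhcr7 (-0.93) and Sc5d (-0.59, adjusted p = 8.97e-04). Fdft1 overlaps Ctsb, Cyp51 overlaps Akap9 and Ggps1 overlaps Arid4b on the opposite strand, and Tm7sf2 overlaps Vps51 on its own strand. Abcg5 and Abcg8 overlap each other, and Npc1 overlaps Rmc1, on opposite strands. These are overlaps of whole annotated gene spans, and overlap of exons was not looked at. The annotated span of Abcg8 begins inside Abcg5, before the RefSeq start used above. Whether the counting used strand is not given in the sources used here, so reads could be shared within these pairs where exons overlap.

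**Figure D1:**
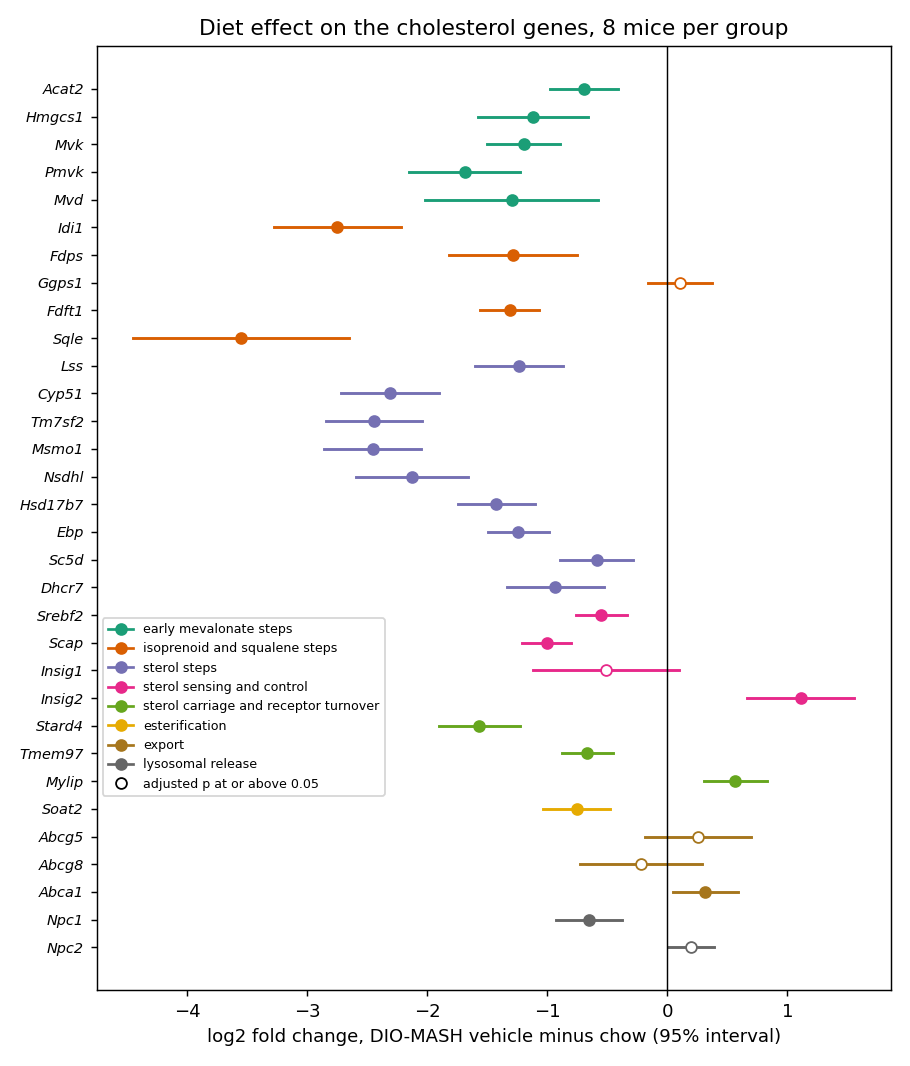
Log2 fold change of each of the 32 genes in DIO-MASH vehicle against chow livers (horizontal axis, 95% interval as a line, 8 mice per group), each gene in its own row and coloured by role; open points did not pass adjusted p below 0.05. Enzymes of synthesis lie left of 0 down to Sqle at -3.55, except Ggps1 at 0.11, and Insig2 lies farthest right at 1.11.

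The genes of sterol sensing did not move as one. Srebf2, at 66.1 to 98.4 CPM (median 71.9) in chow and 42.4 to 64.3 CPM (median 53.8) in vehicle mice, fell by 0.55 on the log2 scale (adjusted p = 1.62e-05), and Scap, at 144 to 247 CPM (median 186) and 72.5 to 111 CPM (median 97.4), fell 2.01-fold. Neither overlapped between groups. Insig1 was at 131 to 356 CPM (median 174) in chow and 88.3 to 251 CPM (median 119) in vehicle mice. The ranges overlapped widely and the test was not passed (log2 fold change -0.51, 95% interval -1.12 to 0.10). Insig2, at 55.2 to 147 CPM (median 60.7) in chow and 101 to 225 CPM (median 168) in vehicle mice, rose 2.16-fold (log2 fold change 1.11 ± 0.22 (SE), adjusted p = 3.38e-05). 7 of the 8 chow mice were below every vehicle mouse, and chow mouse 1 stood at 147 CPM. Insig2 has a liver transcript that insulin is known to lower, and these gene counts do not separate its transcripts.

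Stard4, which moves cholesterol between membranes and is a known SREBP-2 target, was at 146 to 242 CPM (median 179.6) in chow and 36.97 to 81.6 CPM (median 66.8) in vehicle mice and fell 2.96-fold, with no overlap. Tmem97, a sterol-responsive membrane protein that binds Npc1, fell by 0.67, and Npc1, the lysosomal cholesterol exporter, by 0.65 on the log2 scale. Npc2, which hands cholesterol to Npc1 inside the lysosome, was not called (0.20, adjusted p = 0.0802). Soat2, the acyltransferase that stores cholesterol as esters in hepatocytes, was at 44.2 to 63.5 CPM (median 50.7) and 23.3 to 38.9 CPM (median 31.8) and fell by 0.75. Mylip went the other way. It stood at 6.28 to 10.1 CPM (median 8.98) in chow and 10.8 to 15.98 CPM (median 12.8) in vehicle mice, every vehicle mouse above every chow mouse (9.49% of all genes), with a log2 fold change of 0.57 ± 0.13 (SE), adjusted p = 2.82e-04.

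Of the export genes Abca1 alone was called. Abcg5 and Abcg8, the partner subunits of the transporter that sends sterols into bile, were not called (log2 fold changes 0.26, 95% interval -0.18 to 0.70, and -0.22, -0.72 to 0.29). Abca1, which loads cholesterol onto high-density lipoprotein, was at 151 to 351 CPM (median 221) in chow and 244 to 400.3 CPM (median 271) in vehicle mice (log2 fold change 0.32 ± 0.14 (SE), adjusted p = 0.0433). That call depended on single mice. It was lost in 18 of the 24 fits with 1 mouse left out (each of the 16 mice compared and each of the 8 low-dose semaglutide mice, which share the estimate of spread), among them those without chow mouse 8 (0.25, adjusted p = 0.114) and without vehicle mouse 3 (0.22, adjusted p = 0.178).

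Per kilobase of exon, so that genes can be compared, Ebp (159 CPM per kb) and Sc5d (104) were the most abundant of the 32 in chow livers and Mylip (2.68) and Ggps1 (1.41) the least. In vehicle livers Sc5d (69.3) and Ebp (67.3) still led, while Sqle dropped from rank 19 to 30 and Msmo1 from 9 to 22. Insig2 went from rank 22 to 5 and Abcg5 from 12 to 4.

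A synthesis score, the mean over the 19 enzymes of log2 CPM centred on each gene's mean over the 56 mice, shows the pathway in each animal. It ran from 0.68 to 1.55 (mean 1.19 ± 0.30) in chow mice and from -1.01 to -0.07 (mean -0.37 ± 0.34) in vehicle mice (± SD, n = 8 in each group). It was -0.53 to 0.28 (mean -0.30 ± 0.26) with low-dose zalfermin, -0.73 to 0.46 (mean -0.14 ± 0.35) with high-dose zalfermin, -0.77 to 0.35 (mean -0.21 ± 0.45) with low-dose semaglutide, -0.61 to 0.29 (mean -0.12 ± 0.33) with high-dose semaglutide and -0.34 to 0.20 (mean -0.04 ± 0.19) with the combination. Each treated group overlapped the vehicle mice. None of the 40 treated mice reached the lowest chow mouse (mouse 6, 0.68), and the nearest was high-dose zalfermin mouse 7. No test was made on the score. Within the number series of the mouse labels (A to D, whose meaning the labels do not give), vehicle minus chow was -1.80, -1.89, -1.42 and -1.16, from 1 to 3 mice a side. Over series A to C treated minus vehicle ran from -0.12 to 0.28 with low-dose zalfermin, 0.13 to 0.52 with high-dose zalfermin, -0.0066 to 0.35 with low-dose semaglutide, 0.01 to 0.72 with high-dose semaglutide and 0.22 to 0.60 with the combination.

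**Figure D2:**
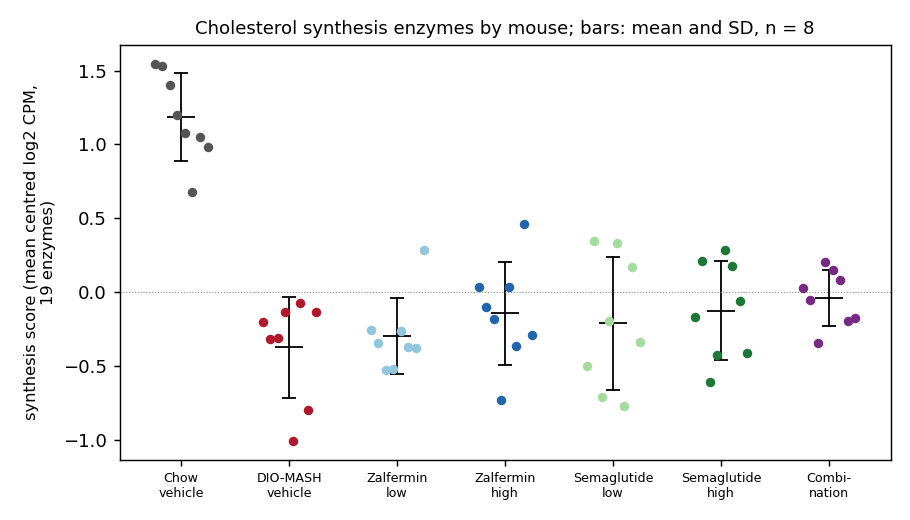
Synthesis score (vertical axis, mean centred log2 CPM of 19 enzymes) of each mouse in the 7 groups; the bars give the mean and SD of 8 mice. The 8 chow mice lie at 0.68 or above and every AMLN-fed mouse lies at 0.46 or below.

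The treated groups were also set against chow, comparisons added after the data had been seen. With both zalfermin doses and both semaglutide doses 17 of the 19 enzymes stayed lower than in chow, and with the combination 16, where 22.5% (low-dose zalfermin), 17.6% (high-dose zalfermin), 21.3% (low-dose semaglutide), 18.6% (high-dose semaglutide) and 15% (combination) of all genes were lower. These comparisons share the chow mice. For Mvk, Idi1, Fdft1, Sqle, Cyp51, Tm7sf2, Msmo1, Nsdhl, Stard4 and Tmem97 all 40 treated mice were below the lowest chow mouse. The others differed. 6 treated mice were within the chow range for Ebp, 10 for Lss, 31 for Sc5d and 35 for Hmgcs1, whose chow mice spread widely. Mylip stayed above the highest chow mouse in 33 of 40, and Abcg5 stood above it in 22. For these counts of treated mice against the chow range, the shares of all genes were not worked out.

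The next question was what each treatment changed compared with DIO-MASH vehicle. The 5 comparisons share the 8 vehicle mice and so are not independent. High-dose zalfermin changed the most of these genes, with 11 higher and 1 lower, where 8.54% of all genes were higher and 8.68% lower. 7 of the 19 synthesis enzymes rose, 6 of them in the sterol steps (Lss, Tm7sf2, Msmo1, Hsd17b7, Ebp, Sc5d) and Fdft1 just before them, and none of the early steps was called. Pmvk, an early step, had a log2 fold change of 0.59 ± 0.23 (SE), adjusted p = 0.0621, larger than those of the called Lss and Hsd17b7, and it passed without treated mouse 4 or 6 (0.69 and 0.68). Whether early and sterol steps differed was not tested. Ebp ranged from 132 to 212 CPM (median 150.3) in vehicle and from 191 to 307 CPM (median 251) in treated mice, 1.62-fold higher (log2 fold change 0.69 ± 0.13 (SE), adjusted p = 5.90e-05). 7 of the 8 treated mice were above the highest vehicle mouse (mouse 8), and mouse 4 was below it. Msmo1 was at 44.8 to 132 CPM (median 90.4) against 33.8 to 80.5 CPM (median 54.2) in vehicle mice (log2 fold change 0.77 ± 0.19 (SE), adjusted p = 0.00329), and Tm7sf2 at 52.6 to 124 CPM (median 69.9) against 30.96 to 67.6 CPM (median 51.3) (0.67 ± 0.19 (SE), adjusted p = 0.00978). Both remained under the lowest chow mouse. Sqle, Cyp51, Idi1, Nsdhl and Hmgcs1, which fell with the diet, were not called, with log2 fold changes of -0.45, 0.07, 0.29, -0.04 and -0.26.

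Outside synthesis, high-dose zalfermin raised both subunits of the biliary transporter. Abcg8 ran from 134 to 493 CPM (median 254) against 110.4 to 249.1 CPM (median 130.3) in vehicle mice (log2 fold change 0.89 ± 0.25 (SE), adjusted p = 0.00987) and Abcg5 from 132 to 309 CPM (median 190.4) against 75.9 to 216 CPM (median 120.4) (0.65 ± 0.22 (SE), adjusted p = 0.0328). The groups overlapped in both. The annotated spans of the 2 genes overlap on opposite strands, so reads could be shared between them where exons overlap, which was not looked at. The call of Abcg5 was lost in 8 of 24 fits with a mouse left out (vehicle mice 1, 2, 4, 6 and 7, treated mice 1, 5 and 6), where it was 0.54 to 0.64. Stard4 rose by 0.64 and Scap by 0.36 on the log2 scale. Insig2 fell 1.71-fold, to 58.9 to 145 CPM (median 93.6) (log2 fold change -0.78 ± 0.22 (SE), adjusted p = 0.00958), and 5 of the 8 treated mice were below the lowest vehicle mouse at 101 CPM. Within series A, B and C its difference in mean log2 CPM was -1.25, -0.65 and -0.11. Other calls that changed were Lss without vehicle mouse 5 or treated mouse 7 (lowest 0.39) and Hsd17b7 in 7 of 24 such fits (lowest 0.39 without treated mouse 6). With the number series as a covariate both lost their call (Lss 0.48, adjusted p = 0.0594, and Hsd17b7 0.39, adjusted p = 0.0655).

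High-dose semaglutide gave 5 higher calls and none lower, where 1.43% of all genes were higher and 1% lower. They were Fdft1, Tm7sf2, Ebp, Scap and Stard4. Fdft1 ran from 70.5 to 94.5 CPM (median 79.6) against 43.6 to 78.8 CPM (median 55.5) in vehicle mice (log2 fold change 0.47 ± 0.12 (SE), adjusted p = 0.0241). The groups overlapped at their edges. Tm7sf2 was at 45.4 to 105 CPM (median 77.2) (0.69 ± 0.19 (SE), adjusted p = 0.0382), and Stard4 at 74.7 to 145 CPM (median 96.4) (0.61 ± 0.16 (SE), adjusted p = 0.0303). These calls were close to the threshold. Without treated mouse 2, and without treated mouse 4, none of the 5 was called, and over the 24 fits with a mouse left out Ebp was called in 11 and Scap in 10. Insig2 was at 68.8 to 134 CPM (median 106) and missed the threshold (log2 fold change -0.71 ± 0.22 (SE), adjusted p = 0.0689). It passed without vehicle mouse 5 (-0.78, adjusted p = 0.0463) or treated mouse 7 (-0.75, adjusted p = 0.0441), with DESeq2 (adjusted p = 0.0399) and with only the groups compared (adjusted p = 0.0326).

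The combination raised 5 of the 32 genes, all of them synthesis enzymes, and lowered none, where 10% of all genes were higher and 10.9% lower. That is 15.6% of the 32 genes and 26.3% of the 19 enzymes. The count was 8 with DESeq2 and 10 with only the groups compared (9 higher, 1 lower) or without combination mouse 2. Pmvk showed the largest change, at 35.003 to 81.1 CPM (median 49.7) against 11.9 to 35.1 CPM (median 29.8) in vehicle mice (1.92-fold higher, log2 fold change 0.94 ± 0.23 (SE), adjusted p = 0.00217). Every combination mouse but mouse 3 was above every vehicle mouse. Tm7sf2 was at 49.7 to 138 CPM (median 82.996) (0.81 ± 0.19 (SE), adjusted p = 0.00175) and Ebp at 209 to 299 CPM (median 226) (0.62 ± 0.13 (SE), adjusted p = 2.46e-04), with 6 and 7 of 8 combination mice above the highest vehicle mouse. Fdft1 rose by 0.44 and Lss by 0.52, the latter uncalled in 6 of 24 fits with a mouse left out (vehicle mice 5 and 7, combination mice 1, 3, 4 and 5, lowest 0.43) and with the number series as a covariate (0.46, adjusted p = 0.066). Msmo1, at 46.3 to 69.1 CPM (median 57.3), was not called (0.10, 95% interval -0.29 to 0.49), and neither were Abcg5 (0.46) or Abcg8 (0.63, adjusted p = 0.0642). Abcg8 passed with the number series as a covariate (0.68, adjusted p = 0.0444), with DESeq2 (adjusted p = 0.0484) and without the 2 mice least like their groups (adjusted p = 0.045). Combination mouse 3 was the highest of its group for Abcg5, Abcg8 and Abca1.

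Neither low dose on its own gave a call among the 32 genes. With low-dose zalfermin 0 were called by edgeR, 8 had an unadjusted p under 0.05 and DESeq2 called 1, Ebp, where 0.468% of all genes were called. Ebp was at 169 to 257 CPM (median 193) with a log2 fold change of 0.40 ± 0.13 (SE), adjusted p = 0.14. With low-dose semaglutide 0 were called by edgeR and 0 by DESeq2, 5 had an unadjusted p under 0.05, and 0% of all genes were called. Its largest value was that of Insig1 (0.53, adjusted p = 0.64), followed by Stard4 (0.51, adjusted p = 0.336). In low-dose semaglutide mouse 6 Sqle rested on 5 reads, the fewest of any of the 32 genes in any mouse, and Insig1 and both Abcg genes were the highest of that group.

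**Figure D3:**
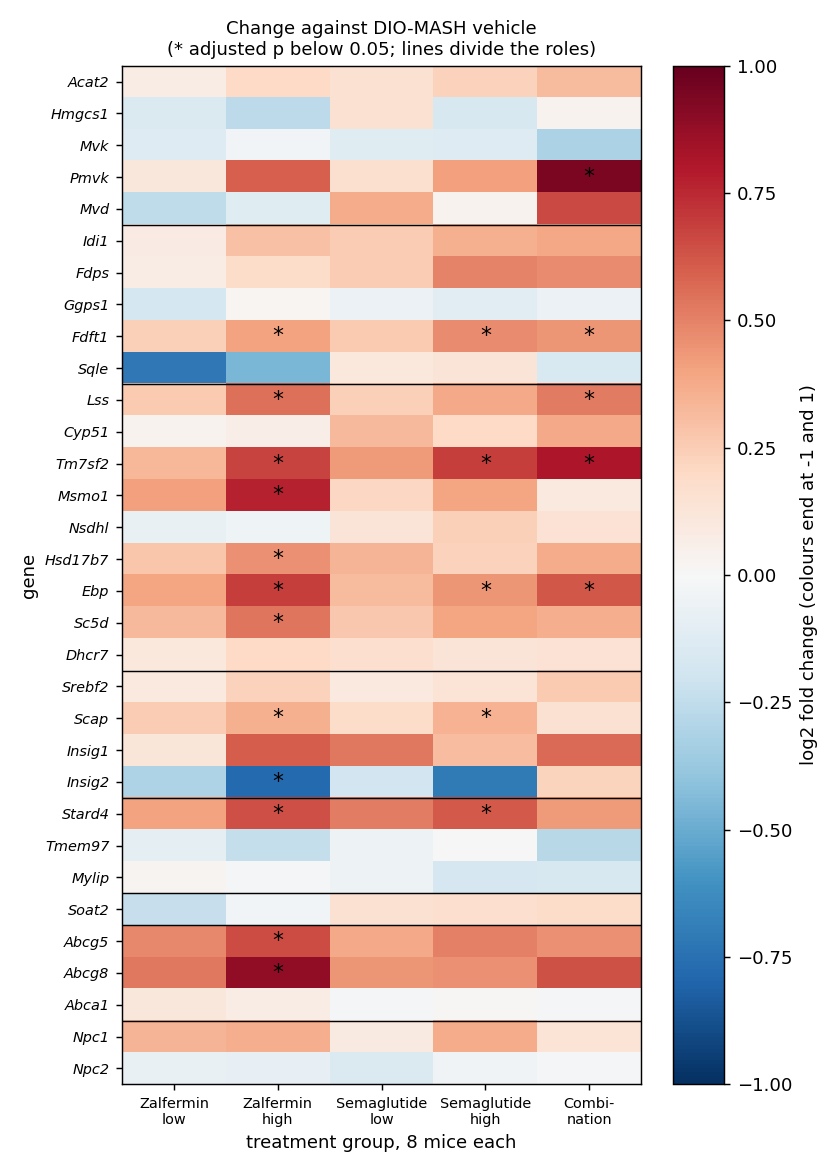
Log2 fold change of the 32 genes (rows, divided by role) in each of the 5 treatment groups against DIO-MASH vehicle (columns, 8 mice per group); colours run from -1 to 1 and asterisks mark adjusted p below 0.05. The low-dose columns hold no asterisk, Fdft1, Tm7sf2 and Ebp hold one in all 3 other columns, and Insig2 is the single gene with an asterisk and a negative value.

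Fdft1, Tm7sf2 and Ebp were called in each of the high-dose and combination comparisons. 13 of the 32 genes were called in at least 1 of the 5 treatment comparisons and 19 in none. The shares of all genes called in at least 1, in none, or in each of the high-dose and combination comparisons were not worked out. Whether these counts are unusual was therefore not tested. The 19 include Hmgcs1, Mvk, Mvd, Idi1, Fdps, Sqle, Cyp51, Nsdhl and Dhcr7, which all fell with the diet. For Sqle the 95% interval of the log2 fold change reached from -1.35 to 0.44 with high-dose zalfermin and from -1.03 to 0.73 with the combination, so neither a fall nor a rise was shown. For Cyp51 the interval was -0.33 to 0.46 and -0.01 to 0.77 in the same order.

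The combination was then compared with each agent alone, at equal doses with the low-dose groups and at higher doses of the single agent with the high-dose groups. In each of the 4 comparisons 1 gene was called, all of them higher. Pmvk was higher than with low-dose zalfermin, 19.8 to 52.8 CPM (median 26.9) (log2 fold change 0.82 ± 0.23 (SE), adjusted p = 0.0183; 3.27% of all genes were higher), and than with low-dose semaglutide, 19.003 to 52.2 CPM (median 28.6) (0.78 ± 0.23 (SE), adjusted p = 0.0358; 1.93%). Within series A, B and C the first difference in mean log2 CPM was 0.82, 1.75 and 0.17 and the second 0.78, 1.44 and 0.18. The first call was lost without combination mouse 6 (0.72, adjusted p = 0.0538), and the second without low-dose semaglutide mouse 1, 3, 4 or 8 or combination mouse 5 or 6 (0.67 to 0.78).

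Insig2 was higher with the combination than with high-dose zalfermin (log2 fold change 0.997 ± 0.22 (SE), adjusted p = 0.0239; 0.326% of all genes were higher) and than with high-dose semaglutide (0.93 ± 0.22 (SE), adjusted p = 0.0145; 0.858%). The combination mice spread from 58.4 to 368 CPM (median 169.7), with an SD of 103 CPM against 20.4 and 18.3 CPM in the low-dose zalfermin and semaglutide groups. Mice 5 and 6 stood at 316 and 368 CPM and mouse 2 at 58.4 CPM, below every vehicle mouse. Mice 5 and 6 are the 2 combination mice of number series B, and were also the 2 highest of the group for Pmvk. Within series A, B and C combination minus high-dose zalfermin was 0.58, 1.88 and 0.42, and combination minus high-dose semaglutide 0.48, 1.597 and 0.52. The call against high-dose zalfermin was lost without zalfermin mouse 2 or 5 or combination mouse 4, 5 or 6 (0.79 to 0.997), and that against high-dose semaglutide without combination mouse 5 or 6 (0.78 and 0.72). With only the groups compared in the fit neither was called (adjusted p = 0.163 and 0.13). Combination minus vehicle was 0.22 (95% interval -0.22 to 0.66).

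**Figure D4:**
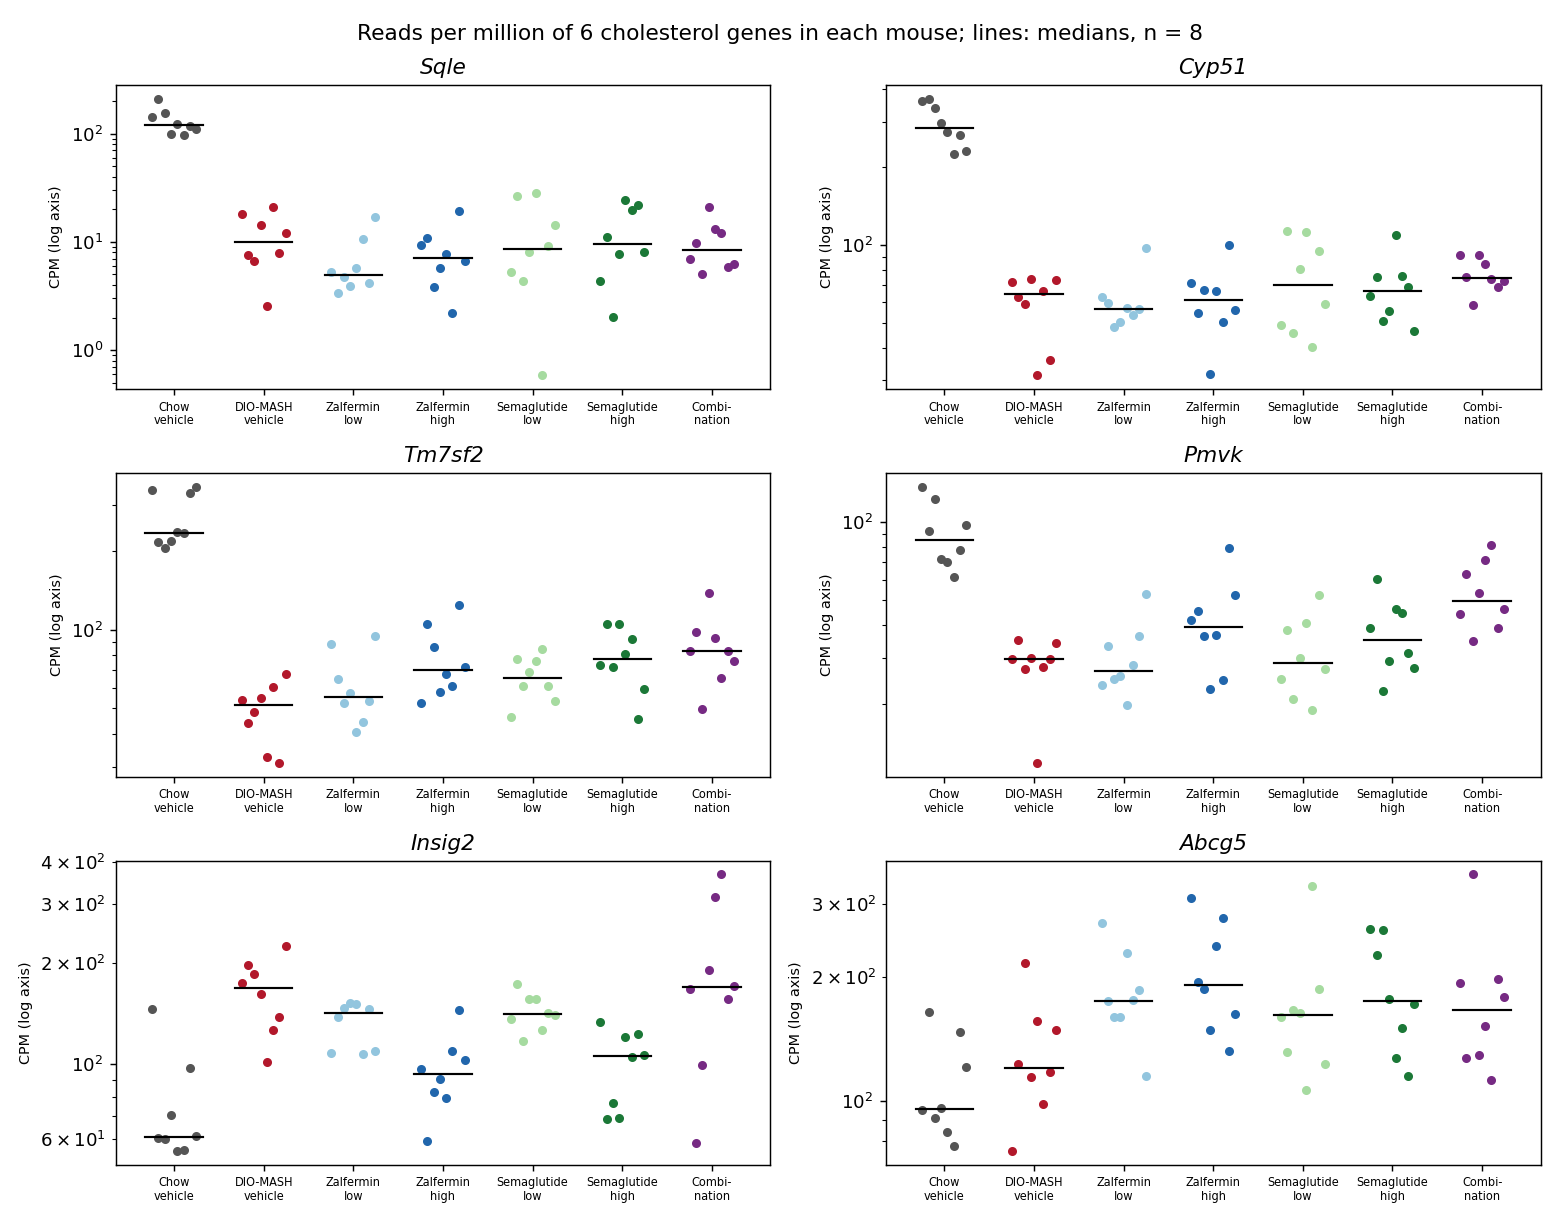
CPM (vertical axis, log scale) of Sqle, Cyp51, Tm7sf2, Pmvk, Insig2 and Abcg5 in each of the 56 mice by group; the lines are medians of 8 mice. Every AMLN-fed mouse lies below every chow mouse for Sqle, Cyp51 and Tm7sf2, and Insig2 spreads from 58.4 to 368 CPM in the combination group.

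None of the 32 genes was called between doses or between agents. High minus low zalfermin gave 0 calls by edgeR and by DESeq2 (3 with an unadjusted p under 0.05; 1.84% of all genes were called), high minus low semaglutide 0 and 0 (2; 0%), and high-dose zalfermin minus high-dose semaglutide 0 and 0 (2; 0.447%). Pmvk was 0.48 higher on the log2 scale at the high zalfermin dose (95% interval 0.02 to 0.94) and Insig2 differed by -0.47 (interval -0.91 to -0.03), neither past the adjusted threshold. For the departure from additivity of the low doses (combination minus both single low doses plus vehicle) 0 genes were called by edgeR and by DESeq2, 4 had an unadjusted p under 0.05 (Pmvk, Scap, Insig2 and Stard4), and 0.0142% of all genes were called. Pmvk departed by 0.66 (95% interval 0.01 to 1.30) and Insig2 by 0.72 (0.10 to 1.34).

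A list of 48 other genes of sterol handling was read beside these, of which 46 were tested. With the diet 12 rose and 16 fell (median -0.11), where 28.9% of all genes tested were higher and 26.5% lower. The largest rises were those of Ch25h, which makes the oxysterol 25-hydroxycholesterol but stood under 1 CPM in both groups, Abcg1, a cholesterol exporter of macrophages and other cells (6.71 CPM in chow and 30.5 CPM in vehicle mice on average, log2 fold change 2.16 ± 0.22, adjusted p = 1.19e-11), Gramd1b, a cholesterol carrier of the endoplasmic reticulum (2.07 ± 0.24, adjusted p = 4.43e-10), and Soat1, the acyltransferase found widely outside hepatocytes (1.896 ± 0.24, adjusted p = 2.20e-09), opposite to Soat2. The sums of macrophage and stellate cell markers given above were higher in the same livers, and their part was not tested. The largest falls were those of Cyp39a1, an oxysterol hydroxylase (-1.62 ± 0.14, adjusted p = 2.55e-13), Acss2, which makes acetyl-CoA from acetate (-1.59 ± 0.28, adjusted p = 4.02e-06), Lcat, which esterifies cholesterol in plasma (-1.14 ± 0.11, adjusted p = 8.77e-12), and Cyp27a1, a sterol hydroxylase of bile acid synthesis (-1.08 ± 0.09, adjusted p = 1.04e-13).

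Of the same list the low doses gave no call (9 genes with an unadjusted p under 0.05 for zalfermin and 5 for semaglutide, edgeR), where 0.468% and 0% of all genes were called. High-dose zalfermin raised 8 and lowered 4, where 8.54% of all genes were higher and 8.68% lower. High-dose semaglutide raised 3 and lowered none (1.43% and 1% of all genes), and the combination raised 10 and lowered 3 (10% and 10.9%). Cyp39a1, Lcat and Cyp27a1 were raised by all 3. With the combination they rose by 1.66, 0.90 and 0.57 on the log2 scale, and Cyp39a1 averaged 66.3 CPM against 21.04 CPM in vehicle and 64.6 CPM in chow mice. The combination also raised Ces1d, a carboxylesterase (0.85 ± 0.25, adjusted p = 0.0102), and lowered Abcg1 (-0.63 ± 0.20, adjusted p = 0.02), Fntb, the farnesyltransferase beta subunit (-0.57 ± 0.14, adjusted p = 0.00259), and Nceh1, a cholesterol ester hydrolase (-0.41 ± 0.15, adjusted p = 0.0413). High-dose zalfermin lowered Abcg1 by 0.60, Fntb by 0.62 and Lipa, the lysosomal lipase that frees cholesterol from esters, by 0.42 on the log2 scale. Hepatocyte markers, mostly Alb, summed to 90679.7 CPM with high-dose zalfermin and 99551 CPM with the combination, against 64900.5 CPM in vehicle mice. The stellate sum was 218 and 198 against 761.7 CPM in the same order. Their part in these changes was not tested.

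Within groups, mice with high levels of one enzyme tended to have high levels of the others. As a description over 56 mice, with each value taken as the deviation from its group mean, Cyp51 had a Pearson r of 0.95 with the score of the other 18 enzymes, Dhcr7 0.89, Fdps 0.89 and Nsdhl 0.87. The lowest were Tm7sf2 (0.40) and Ebp (0.14), which rose with the treatments, and Ggps1 (0.11), which was not called. The other enzymes called with a treatment ran from 0.62 (Hsd17b7) to 0.83 (Msmo1). Srebf2 had 0.65, Tmem97 0.58, Scap 0.38, Insig2 0.34 and Insig1 0.24 with the score. Outside the lists the 10 genes with the highest r were Rdh11, a retinal reductase (0.84), Chrna4 (0.76), Pnpla3 (0.68), Acacb, an acetyl-CoA carboxylase (0.67), Pnpla5 (0.66), Ap5s1 (0.65), Papss1 (0.64), Aqp8 (0.62), Commd10 (0.62) and Pstpip2 (0.62). These points share library, depth and number series, and Chrna4, Pnpla3 and Pnpla5 averaged under 4 CPM.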

How the data were processed

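Liver RNA of 56 mice was sequenced after stranded mRNA library preparation. The authors deposited raw whole read counts per gene, 1 column per mouse. The submitters' processing notes name Trim Galore 0.6.4, Salmon 1.9.0 and the build GRCm38, whereas the study's methods name STAR with decoy-aware indexes, so the counts may be rounded Salmon estimates. The strand setting of the counting is not given in the sources used here. A gene entered the tests where at least 3 mice had at least 5 reads (14105 of 21935), and counts were scaled by TMM. All 56 mice were fitted together with 1 coefficient per group in edgeR 4.0.16 (R 4.3.3), and tested by quasi-likelihood, adjusted by Benjamini and Hochberg's method across all genes tested. A call is an adjusted p below 0.05. Reads on genes were 5228187 to 20885786 per mouse, and the common biological coefficient of variation was 22.6%. All pairs of mice within a group differed beyond sampling noise.

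The 32 genes, the 48 other genes and the marker lists were chosen with earlier results of these data known. All 32 genes were named by role. Of the 48, at most 4 per direction and comparison were named, those with the largest change among the called, and of genes outside both lists the 10 with the highest Pearson r with the synthesis score. Mice and series singled out were chosen after their values were seen. Alternatives were DESeq2 1.42.0 and its size factors, other filters, fits of only the groups compared, the number series (A to D) as a covariate, and leaving out each mouse. Scripts were tested on simulated data. Promoter windows came from RefSeq (GRCm38.p6) and exons from GENCODE M21. Lengths per gene, used only for levels per kilobase, are summed exon lengths.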

Additional observations from a re-analysis of the deposited data

Results flagged for a closer look

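In 24 of the 224 sets of 8 values (32 genes in 7 groups, 10.7%) the highest or lowest mouse stood apart from the other 7 by Dixon's criterion. The criterion marks about 1 set in 20 when values are normally distributed. It was used on CPM without logs, whose distribution was not checked, and most marked mice were on the high side. No excess of unusual mice can therefore be read from this share. The sets share mice, so they are not independent.

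Low-dose zalfermin mouse 8 was the high mouse for Idi1 (7.44 CPM), Fdps (20.5 CPM), Cyp51 (97.3 CPM), Nsdhl (56.7 CPM) and Dhcr7 (85.9 CPM). High-dose zalfermin mouse 7 was the high mouse for Acat2 (91.1 CPM), Fdps (20.8 CPM) and Lss (70.5 CPM). These are enzymes of synthesis, and both mice had the highest synthesis score of their groups. The score is a mean that includes these enzymes, so its high value follows in part from how it is built. In low-dose zalfermin, mouse 1 stood high for Scap (152.6 CPM) and Stard4 (141.9 CPM) and mouse 3 low for Hmgcs1 (109.4 CPM).

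Combination mouse 3 stood high for Abcg5 (352.8 CPM), Abcg8 (509 CPM) and Abca1 (424.8 CPM), and low-dose semaglutide mouse 6 for Abcg5 (330.1 CPM) and Abcg8 (433.8 CPM). In DIO-MASH vehicle, mouse 3 stood high for Abca1 (400.3 CPM), mouse 6 for Idi1 (7.36 CPM) and mouse 8 for Ebp (211.7 CPM), and mouse 5 low for Pmvk (11.9 CPM). In high-dose semaglutide, mouse 5 stood high for Cyp51 (109.3 CPM), and mouse 3 high for Stard4 (145.1 CPM) and low for Npc2 (99.1 CPM). Chow mouse 1 stood high for Insig2 (146.6 CPM).

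The combination's effect differed from that of a single agent by edgeR's test of the difference for Pmvk (0.82 on the log2 scale against low-dose zalfermin and 0.78 against low-dose semaglutide) and for Insig2 (0.997 against high-dose zalfermin and 0.93 against high-dose semaglutide). In the same order 3.27%, 1.93%, 0.326% and 0.858% of all genes were higher. Each of these calls was lost without combination mouse 6. With only the groups compared, all but the call against low-dose zalfermin were lost.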

How the results depend on the processing

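Of 1112 recomputed values, 1037 kept their direction and side of the threshold (or, for counts, stayed within 1.5 times), 29 were weaker, 46 moved and none reversed. Group means of the synthesis score were kept if they moved by less than the group's SD. Leaving out 1 of 8 mice cannot move a mean that far, so that outcome was fixed. Single genes entered only where called, and of their fits without a mouse only those with the lowest and highest change. Calls lost in other such fits are not in this total. The cause of the moves was not tested. Of the 32 genes, the count called was 1 in place of 0 for low-dose zalfermin against vehicle with the number series as a covariate or with DESeq2 (Ebp in both). For high-dose semaglutide it was 3 in place of 5 with DESeq2's size factors or without the filter. For the combination against vehicle it was 8 with DESeq2, 10 with only the groups compared and 8 without the 2 mice least like their groups, in place of 5. Against single agents, in place of 1, it was 2 with DESeq2 (low-dose zalfermin, high-dose zalfermin), 2 without those 2 mice (low-dose semaglutide) and 0 with only the groups compared (high-dose zalfermin, low-dose semaglutide, high-dose semaglutide). Leaving out those mice was chosen after seeing the data.

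With single mice left out the count ranged from 26 to 27 for the diet, 10 to 14 for high-dose zalfermin, 0 to 6 for high-dose semaglutide (0 without treated mouse 2 or 4) and 4 to 10 for the combination against vehicle (10 without combination mouse 2). Combination minus low-dose zalfermin gave 1 to 2, minus high-dose zalfermin 0 to 2, minus low-dose semaglutide 0 to 2 and minus high-dose semaglutide 0 to 1. It stayed at 0 for both low doses, the dose and agent comparisons and the departure from additivity.

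Over all genes, DESeq2 called 211 in place of 66 with low-dose zalfermin, 32 in place of 0 with low-dose semaglutide and 516 in place of 343 with high-dose semaglutide against vehicle. It called 176 in place of 71 for combination minus high-dose zalfermin, 415 in place of 266 minus high-dose semaglutide, 143 in place of 63 between the high doses and 14 in place of 2 for the departure from additivity. Without the 2 mice the counts were 157 for low-dose zalfermin, 564 for high-dose semaglutide, 146 between the high doses and 1260 in place of 594 for combination minus low-dose semaglutide. With only the groups compared, the combination minus high-dose zalfermin, low-dose semaglutide and high-dose semaglutide gave 16, 309 and 126. The labels state no pairing of mice across groups. The mouse numbers of the labels run consecutively across groups in places, what such runs stand for is not given, and they were not fitted as a block. The fewest reads were those of low-dose semaglutide mouse 6, with 5 for Sqle, 18 for Idi1 and 34 for Fdps, which limits the precision of these values.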
